A study of Mus musculus with 8 samples.

Results

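The bins described here are 100-kb stretches of the mouse autosomes that lay in opposite nuclear compartments in 7 Hi-C libraries of mouse embryonic stem cells, 3 from a Setdb1 conditional KO line and 4 from Suv39h WT and Suv39h DKO cells, here called the Suv39h line together. A bin was chosen by the sign of its compartment score in these 7 of the 8 libraries. It had to have one sign in Setdb1 WT, Setdb1 KO and Setdb1 KO + UNC and the opposite sign in all 4 libraries of the Suv39h line. Of the 23972 autosomal bins scored in all 8 libraries, 342 met the rule, which is 1.43%. In 192 of them the score was negative (B) in the Setdb1 line and positive (A) in the Suv39h line, and these are called Setdb1-B bins. In the other 150 the score was positive in the Setdb1 line and negative in the Suv39h line, and these are called Setdb1-A bins. The library Setdb1 WT + UNC was not used in the choice and was then placed on each side.

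Hi-C, a proximity-ligation assay of contacts between genomic loci, was done in mouse embryonic stem cells lacking or inhibited for the enzymes that methylate histone H3 at lysine 9. Setdb1 WT was the untreated #33-6 Setdb1 conditional KO clone, Setdb1 WT + UNC, by its label, the same clone given 2 µM UNC0642 for 3 days, Setdb1 KO the clone given 800 nM 4-hydroxytamoxifen (4-OHT) for 5 days to remove SETDB1, and Setdb1 KO + UNC the clone given 800 nM 4-OHT for 2 days and then 2 µM UNC0642 for 3 days. Suv39h WT was the ADF1-26 line and Suv39h DKO the ADF157 line lacking SUV39H1 and SUV39H2, each also studied after 2 µM UNC0642 for 3 days as Suv39h WT + UNC and Suv39h DKO + UNC. Hi-C was done in repeats, but each group had 1 score file, called a library here. All 8 were grown on gelatin in medium with serum, serum replacement and LIF, and the Suv39h WT and DKO cells are separate lines, which means that effects of clone and of genotype cannot be told apart. The difference between the Setdb1 and Suv39h lines likewise cannot be told apart from clone or culture history. With 1 score file a group there was no replicate check on any difference between 2 libraries, and the sources do not state whether a file is 1 repeat or a pool. No read counts come with the scores, and the read numbers that the study lists per repeat cannot be matched to single score files, so the depth behind a score is not given here.

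Mammalian chromosomes separate into an A compartment, gene-rich, early-replicating and mostly active, and a B compartment, gene-poor, often attached to the nuclear lamina and rich in histone H3 lysine 9 methylation. SETDB1 deposits H3K9 trimethylation at endogenous retroviruses and at clustered zinc finger genes, SUV39H1 and SUV39H2 act at pericentromeric satellite and long interspersed repeats, and G9a and GLP, the targets of UNC0642, deposit H3K9 dimethylation over broad silent domains. Bins near the border between compartments, or those holding clustered tissue-specific families, can take either compartment in different cells.

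Promoter sequences are shown for the first gene start with a RefSeq entry in the longest runs of adjacent switching bins that had one, to give the local sequence behind each direction. Each is 300 bases of the gene's strand, 5′ to 3′, in GRCm38.p6 coordinates, with CG dinucleotides in capitals. Thsd4 (chr9:60510986-60511285, minus strand) and Drd2 (chr9:49340153-49340452, plus strand) lie in Setdb1-B bins. Dync2h1 (chr9:7177009-7177308, minus strand) and C6 (chr15:4726960-4727259, plus strand) lie in Setdb1-A bins.
Thsd4: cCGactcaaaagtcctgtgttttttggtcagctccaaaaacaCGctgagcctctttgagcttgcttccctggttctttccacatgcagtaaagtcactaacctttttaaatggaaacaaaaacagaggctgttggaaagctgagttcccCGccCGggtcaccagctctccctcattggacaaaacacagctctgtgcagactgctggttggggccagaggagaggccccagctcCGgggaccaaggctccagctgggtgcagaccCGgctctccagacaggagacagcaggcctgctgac
Drd2: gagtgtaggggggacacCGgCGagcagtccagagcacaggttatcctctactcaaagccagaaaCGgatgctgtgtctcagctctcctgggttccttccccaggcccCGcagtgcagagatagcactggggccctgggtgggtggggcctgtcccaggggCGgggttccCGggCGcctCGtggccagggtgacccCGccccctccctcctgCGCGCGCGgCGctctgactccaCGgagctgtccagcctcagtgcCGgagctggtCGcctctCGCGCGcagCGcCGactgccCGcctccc
Dync2h1: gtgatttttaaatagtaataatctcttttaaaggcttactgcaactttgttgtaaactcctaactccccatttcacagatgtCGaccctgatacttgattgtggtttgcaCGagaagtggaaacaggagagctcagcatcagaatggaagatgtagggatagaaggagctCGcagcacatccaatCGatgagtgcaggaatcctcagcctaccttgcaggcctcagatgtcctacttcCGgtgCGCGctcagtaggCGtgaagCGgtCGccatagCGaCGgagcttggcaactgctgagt
C6: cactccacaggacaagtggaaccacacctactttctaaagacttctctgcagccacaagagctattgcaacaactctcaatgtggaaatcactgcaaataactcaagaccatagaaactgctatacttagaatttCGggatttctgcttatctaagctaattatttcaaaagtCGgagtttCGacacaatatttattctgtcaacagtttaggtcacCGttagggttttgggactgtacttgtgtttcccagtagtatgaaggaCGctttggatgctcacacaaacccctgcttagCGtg
The Drd2 promoter held 23 CG dinucleotides, Dync2h1 held 12, and Thsd4 and C6 held 6 each. Over all genes starting in switching bins, 39 of 53 genes in Setdb1-B bins and 120 of 159 in Setdb1-A bins had an entry. Their promoters had a median of 8 and 6 CG dinucleotides, beside 7 over the 31396 autosomal entries. None of the 4 printed promoters holds GATC, the site cut by the DpnII enzyme used in the assay, which was present in 38.8% of promoters in Setdb1-B bins, 44.8% in Setdb1-A bins and 47.7% of all entries.

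Before the results, the held-out library needs a statement. Across all bins, Setdb1 WT + UNC had a mean r of 0.972 with its 3 labelled line-mates and of 0.976 with the 4 Suv39h libraries, whereas the other Setdb1 libraries correlated with one another at 0.988 or more. The lowest coefficient between Suv39h libraries was 0.974. Setdb1 WT + UNC thus stood apart from the other Setdb1 libraries by more than they did from one another, at a level close to that lowest value within the Suv39h line. The label was used as given. The score files by themselves do not show the line, so its differences from Setdb1 WT may be read as changes with UNC0642 only if the label holds. Each result that uses it is given as such, and the choice of bins does not. Of 29 pluripotency genes such as Pou5f1 and Nanog, 28 lay in bins that were A in all 8 libraries and 0 in bins that were B in all 8. As 14680 of 20713 protein-coding genes and 28 of 28 housekeeping genes also lay in bins always A, this does not identify the cell type. Expression was not measured in these libraries.

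The switching bins had median scores close to zero in each library, while single bins reached 0.0416 in Setdb1 KO and -0.0335 in Suv39h WT + UNC. In Setdb1-B bins Setdb1 WT had a median of -0.00373 and Setdb1 KO one of -0.00475, with -0.00576 in Setdb1 KO + UNC. The Suv39h line stood at 0.00436 (WT), 0.00527 (WT + UNC), 0.00689 (DKO) and 0.00732 (DKO + UNC). In Setdb1-A bins the median score was 0.00448, 0.00644 and 0.00746 in the same 3 Setdb1 libraries and between -0.00729 and -0.00680 in the 4 Suv39h libraries. These scores chose the bins, so they describe the choice and were not tested. The median difference between the line means, Suv39h minus Setdb1, was 0.0117 (0.00387 to 0.0280) in Setdb1-B bins and -0.0145 (-0.0456 to -0.00342) in Setdb1-A bins.

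The zero of the score decided many of these bins. Each autosome's scores average zero, and when the mean implied by an eigenvector of unit length was added back, 366 bins met the rule, of which 79 were among the 342. When it was subtracted, 88 of 289 were shared, and with each autosome centred on its median, 111 of 352. In 26 of the 342, every one of the 7 choosing libraries lay at least 0.005 from zero, namely 8 Setdb1-B bins and 18 Setdb1-A bins. Another 344 bins missed the Setdb1-B class, and 250 the Setdb1-A class, in only 1 library. Setdb1 WT was the library that missed in 97 of the 250, so that 247 Setdb1-A bins were chosen without it, and Suv39h WT in 96 of the 344, so that 288 Setdb1-B bins were chosen without it. The closest members had a deciding score of 5.59e-06 in Suv39h WT (chr15:72800001-72900000, Setdb1-B) and -6.47e-08 in Suv39h DKO + UNC (chr13:62000001-62100000, Setdb1-A). The nearest bins outside had -1.11e-05 in Suv39h WT + UNC (chr18:13800001-13900000) and -1.02e-05 in Setdb1 WT (chr15:4600001-4700000).

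**Figure D1:**
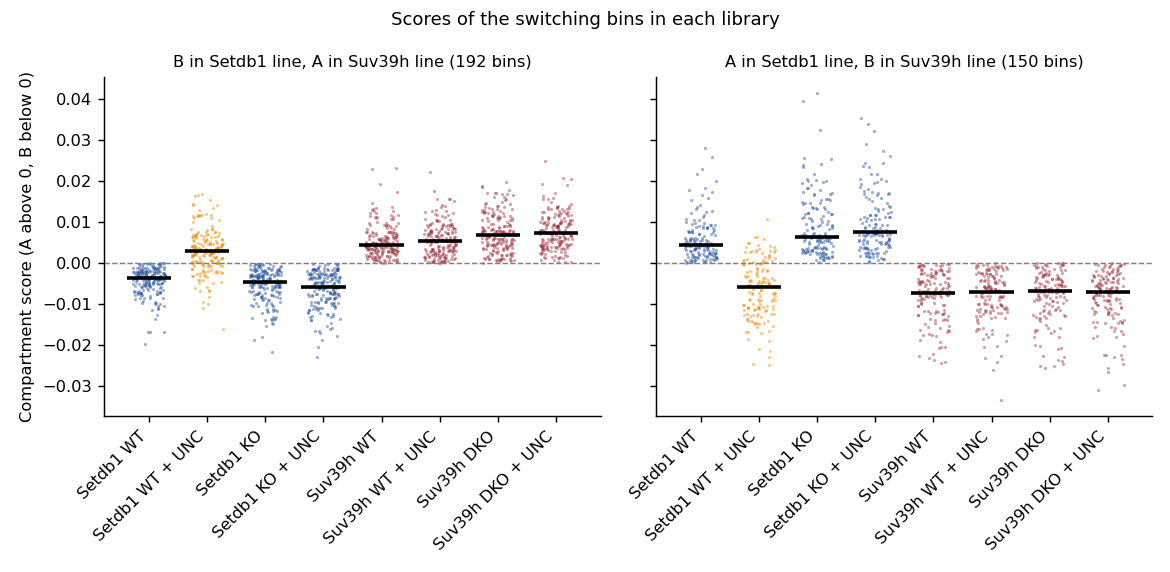
Compartment score (vertical axis, no unit, A above 0 and B below 0) of each switching bin in the 8 libraries, for Setdb1-B bins (left) and Setdb1-A bins (right). Points are bins and black lines are medians. The scores of 7 libraries were fixed in sign by the choice, while Setdb1 WT + UNC (orange), which was not used, has a median of 0.00289 on the left and -0.00584 on the right.

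Setdb1 WT + UNC lay mostly on the side of the Suv39h line. Its score was positive in 142 of 192 Setdb1-B bins, or 74.0% (95% Wilson interval 67.3 to 79.7), with a lowest, median and highest score of -0.0161, 0.00289 and 0.0167. Its score was negative in 115 of 150 Setdb1-A bins, or 76.7% (69.3 to 82.7), with corresponding values of -0.0250, -0.00584 and 0.0108. The intervals cover counting error only and are too narrow, because neighbouring bins are not independent. Setdb1 WT + UNC exceeded all 3 other Setdb1 libraries in 172 of the 192 Setdb1-B bins and lay below all 3 in 139 of the 150 Setdb1-A bins. In Setdb1-B bins it lay below all 4 Suv39h libraries in 101, inside their range in 74 and above it in 17. In Setdb1-A bins it lay above all 4 in 61, inside their range in 63 and below it in 26. The rule fixed the sign of the compared libraries in these bins and left Setdb1 WT + UNC free, which tilts these counts. They were not made for any other left-out library and are a description.

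The position of a library between the lines was expressed with 0 at the mean of its own line and 1 at the mean of the other. The median position of Setdb1 WT + UNC was 0.714 (quartiles 0.464 and 0.908) in Setdb1-B bins and 0.866 in Setdb1-A bins. In 39 Setdb1-B and 55 Setdb1-A bins the position exceeded 1. The held-out score was at least 0.005 past zero on the Suv39h side in 58 Setdb1-B and 81 Setdb1-A bins, and at least 0.005 on the Setdb1 side in 10 and 4.

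To see what leaving a library out does by itself, each other library was left out of the choice and then placed, with the remaining 7 choosing the bins. Setdb1 WT, Setdb1 KO and Setdb1 KO + UNC then crossed to the Suv39h side in 15.3%, 10.7% and 16.7% of Setdb1-B bins and in 14.6%, 14.6% and 0% of Setdb1-A bins (0 of 35 for the last, for which the Wilson interval ends at 9.89%). Their median positions ran from -0.296 to 0.0331. The Suv39h libraries crossed to the Setdb1 side more often in Setdb1-B bins, from 23.1% in Suv39h DKO to 51.5% in Suv39h WT, than the other Setdb1 libraries did in the opposite sense. In Setdb1-A bins the Suv39h libraries crossed in 12.5% to 34.0%. These sets of bins had 35 to 103 members each and overlap, since each contains the 50 Setdb1-B or 35 Setdb1-A bins in which all 8 libraries had the sign of their line.

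A closer match left both Setdb1 WT + UNC and one other Setdb1 library out of the choice and placed them in the same bins. In the 260 Setdb1-B bins chosen without Setdb1 WT, 77.3% had Setdb1 WT + UNC on the Suv39h side and 26.2% had Setdb1 WT there. In the 247 Setdb1-A bins the shares were 83.4% and 39.3%. Left out in place of Setdb1 WT, Setdb1 KO crossed in 13.9% and 13.3% of the bins, and Setdb1 KO + UNC in 13.9% and 10.2%. Setdb1 WT + UNC crossed in 73.1% to 79.0% of those same bins.

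**Figure D2:**
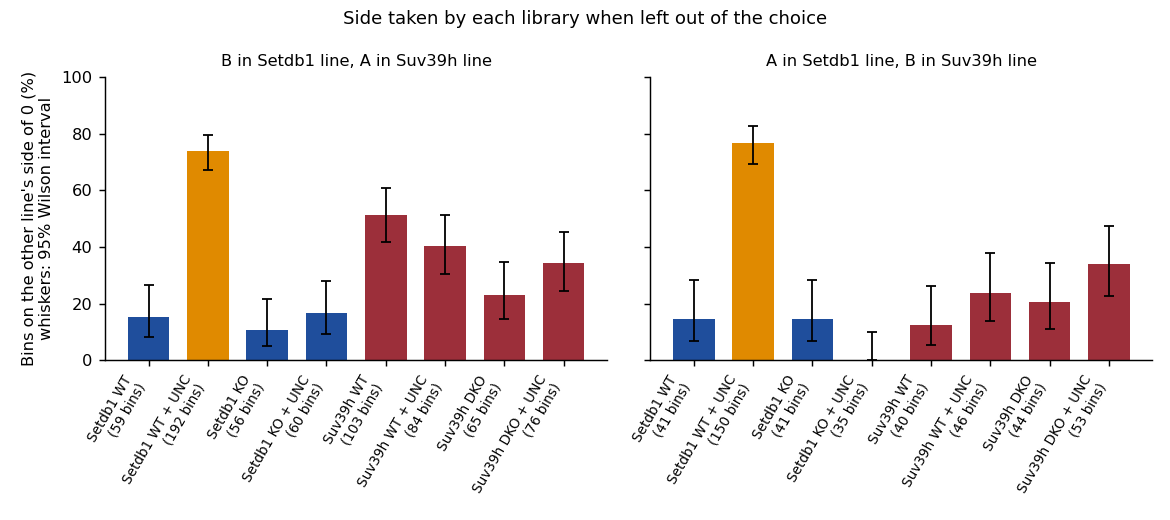
Share of switching bins (vertical axis, %) in which a library left out of the choice took the sign of the other line, for bins B in the Setdb1 line (left) and A in it (right), with the number of bins chosen by the other 7 libraries below each name. Whiskers are 95% Wilson intervals of counting error. Setdb1 WT + UNC stands at 74.0% and 76.7%, the other Setdb1 libraries between 0% and 16.7%.

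The held-out library was also read over all bins, the switching bins included. Setdb1 WT + UNC had another sign than Setdb1 WT in 5.12% of all bins and in 34.9% of the 2785 other bins of mixed sign. Bins of mixed sign are defined by the signs of all 8 libraries. Any bin outside the switching bins in which these libraries differ in sign is among them, so the 34.9% is a description. The share in switching bins follows from the held-out counts above. Across all 23972 bins, the difference of Setdb1 WT + UNC from the mean of Setdb1 KO and Setdb1 KO + UNC had r = 0.484 (Spearman rho 0.399) with the difference of the Suv39h mean from Setdb1 WT, a pair of differences that share no library. The coefficient was positive on 19 of 19 autosomes (0.204 to 0.742). With Setdb1 WT and Setdb1 WT + UNC exchanged the coefficient was -0.0541. Bins are not independent replicates, and the coefficients are a description.

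Within each line, the bins were read for changes of at least 0.01 towards the other line, a size of change the study used to class bins. From Setdb1 WT to Setdb1 WT + UNC the score rose by at least 0.01 in 45 of 192 Setdb1-B bins (3.51% of all bins rose as much) and fell by at least 0.01 in 87 of 150 Setdb1-A bins (4.62% of all bins). The median change was 0.00699 and -0.0118. Setdb1 WT was among the libraries that chose the bins, which tilts this contrast towards such changes, and the placement of the held-out library above is the measure that does not use it in the same way.

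From Setdb1 WT to Setdb1 KO, both used in the choice, the count was 0 of 192 rising (1.40% of all bins) and 0 of 150 falling (0.880% of all bins). A bin within 0.01 of zero in Setdb1 WT could not move that far and stay in its class, so these counts say nothing about SETDB1 removal. The median change was -0.00124 in Setdb1-B bins and 0.00233 in Setdb1-A bins, beside -0.000122 over all bins. It pointed away from the Suv39h line in each class. Both libraries were used in the choice, which Setdb1 WT often decided, so this direction is a description.

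In the Suv39h line the rule sets the same limit. With UNC0642 in Suv39h WT cells, 2 of 192 Setdb1-B bins fell (2.53% of all bins) and 3 of 150 Setdb1-A bins rose (2.26% of all bins) by at least 0.01. Between Suv39h WT and Suv39h DKO, 3 of 192 Setdb1-B bins fell (3.73% of all bins) and 3 of 150 Setdb1-A bins rose (3.64% of all bins). In Setdb1-B bins the score was higher in Suv39h DKO than in Suv39h WT in 132 of 192 bins (68.8%, beside 50.3% of all bins), with a median difference of 0.00172. Both libraries were used in the choice, which Suv39h WT often decided, so this is a description.

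Fitted over all 23972 bins with limma, no switching bin passed a Benjamini-Hochberg adjusted p of 0.05 for UNC0642 across the 4 backgrounds, for SETDB1 loss or for SUV39H1/2 loss, and neither did any other bin (0% of all bins in each of the 3 contrasts). The lowest limma adjusted p among switching bins was 0.957 for UNC0642, 0.274 for SETDB1 loss and 0.358 for SUV39H1/2 loss. At an unadjusted limma p below 0.05, UNC0642 was called in 6 Setdb1-B bins, all rising, and 12 Setdb1-A bins, all falling (4.95% of all bins in either direction). The rule held Setdb1 WT on one side of zero and left Setdb1 WT + UNC free, so these directions are a description. Without Setdb1 WT + UNC in the fit, 2 Setdb1-B bins rose and 4 fell and 4 Setdb1-A bins rose and 2 fell (5.57% of all bins), so the single direction in each class rests on that library. Without the block, 0 switching bins were called (1.99% of all bins). SUV39H1/2 loss was called in 8 Setdb1-B bins that rose and 3 that fell, and in 3 Setdb1-A bins that rose and 2 that fell (9.60% of all bins). All 4 Suv39h libraries of this contrast took part in the choice, so these counts are a description.

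At the same unadjusted p, SETDB1 loss was called in 55 Setdb1-B bins, all falling, and 70 Setdb1-A bins, all rising (9.10% of all bins). Setdb1 WT + UNC enters the fit as a library without SETDB1 loss. The Setdb1-B calls rest on it almost wholly and the Setdb1-A calls in part. The other 3 Setdb1 libraries chose these bins by their sign while Setdb1 WT + UNC was free to cross zero. The direction of these calls thus draws on values the rule used and is a description. The same applies to a fit without Setdb1 WT + UNC. When that library was left out, 2 Setdb1-B bins fell and 26 Setdb1-A bins rose and 1 fell, beside 3.79% of all bins, with no call after adjustment.

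The longest runs of adjacent switching bins were B in the Setdb1 line. The 192 Setdb1-B bins formed 147 runs, of which 120 were single bins and 27 held 2 or more. The 150 Setdb1-A bins formed 121 runs, of which 99 were single bins, and their longest run held 4 bins. Taking the neighbouring bins in Setdb1 WT and Suv39h WT, 47 Setdb1-B runs lay between an A and a B bin in both lines, 30 between A bins and 9 between B bins. Among Setdb1-A runs the same counts were 36, 13 and 39. The remaining 61 and 33 runs had flanks that differed between the lines or were missing. Among runs with the same flanks in both lines, Setdb1-B runs were thus inside A chromatin more often than inside B chromatin, and Setdb1-A runs the reverse.

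The longest run, 8 bins at chr8:118000001-118800000, covered the start and the first part of Cdh13, which encodes T-cadherin, a cadherin anchored to the membrane by a lipid. Averaged over the run, Setdb1 WT scored -0.00391 and Setdb1 KO -0.00449, with -0.00554 in Setdb1 KO + UNC. The Suv39h line stood at 0.00418 (WT), 0.00417 (WT + UNC), 0.00983 (DKO) and 0.00679 (DKO + UNC). Setdb1 WT + UNC averaged 0.00259 and was positive in 7 of the 8 bins.

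Setdb1-A bins had a pair of runs of 4 bins. The one with the wider line difference, at chr13:61700001-62100000, held no protein-coding gene but 15 other annotated genes, and its nearest protein-coding gene was the zinc finger gene Zfp808 at 29.9 kb. On average Setdb1 WT scored 0.0185 there and Setdb1 KO 0.0212, with 0.0230 in Setdb1 KO + UNC. The Suv39h line stood at -0.0142 (WT), -0.0148 (WT + UNC), -0.0161 (DKO) and -0.0176 (DKO + UNC). Setdb1 WT + UNC averaged -0.00318, between the lines, with 2 of 4 bins negative. The difference did not end at the run. At 450 kb past its centre the score was 0.0260 in Setdb1 WT, -0.00531 in Setdb1 WT + UNC and -0.00382 in Suv39h WT, and Suv39h DKO + UNC, at 0.000808, kept that bin out of the choice.

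**Figure D3:**
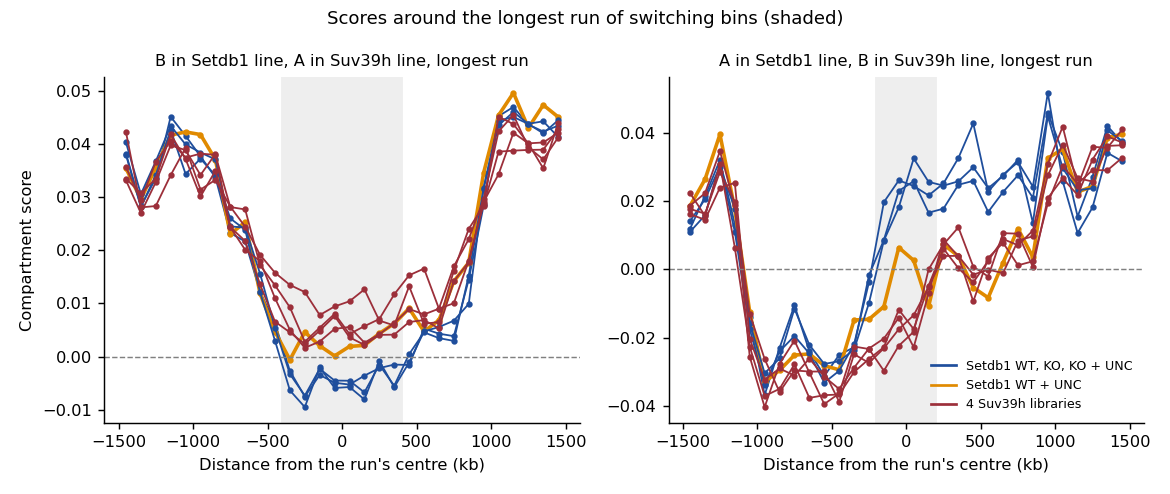
Compartment score (vertical axis, no unit) against distance from the centre of the longest run in kb (horizontal axis), for the Cdh13 run (left) and the run beside Zfp808 (right). Lines are single libraries and the shaded area is the run. The Cdh13 run is a shallow dip whose bottom falls on either side of zero, and beside Zfp808 the 3 choosing Setdb1 libraries are positive throughout the run.

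Of the other named Setdb1-B runs, those at Thsd4 and Fars2 lay largely inside 1 long gene. At chr12:107200001-107700000, 5 bins holding 3110018I06Rik averaged -0.00485 in Setdb1 WT, 0.00477 in Setdb1 WT + UNC and 0.00815 in Suv39h WT. At chr9:60100001-60600000, 5 bins in Thsd4, which encodes an extracellular matrix protein, and Lrrc49 averaged -0.00619, 0.00356 and 0.00597 in the same libraries. At chr13:36200001-36600000, 4 bins within Fars2, the mitochondrial phenylalanyl-tRNA synthetase gene, averaged -0.00482, 0.00638 and 0.00981. The held-out library was positive in all 5, 4 of 5 and all 4 bins of these runs.

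Drd2, the dopamine D2 receptor gene, shared a run of 3 bins at chr9:49300001-49600000 with Ankk1, Ttc12 and Ncam1, the last encoding a neural cell adhesion molecule. Setdb1 WT averaged -0.00623 there and Setdb1 KO -0.00884, with -0.00989 in Setdb1 KO + UNC, against 0.0104 to 0.0142 in the Suv39h libraries. Setdb1 WT + UNC averaged 0.0108, inside the Suv39h range. The bin holding the Drd2 start had the highest held-out score of all Setdb1-B bins, 0.0167. The next were at 0.0165 and 0.0164 in a pair of bins at and beside Nedd9, a signalling scaffold gene, at chr13:41400001-41600000.

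A run of 3 bins at chr13:72800001-73100000 lay 160 kb from Irx4, a homeobox gene, and overlapped no protein-coding gene. It averaged -0.00810 in Setdb1 WT, 0.0128 in Setdb1 WT + UNC and 0.00579 in Suv39h WT, with 0.0144 to 0.0152 in the other Suv39h libraries. Its bins held the widest line difference of the class, 0.0280. Among Setdb1-B bins outside the 6 named runs, the differences between line means were widest at Habp2 (0.0238, chr19:56200001-56300000), which encodes a serine protease, at Ice1 (0.0227, chr13:70500001-70600000) and in a bin 83.9 kb from Med10 (0.0226, chr13:69900001-70000000). All 3 of these bins were positive in the held-out library.

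In 50 Setdb1-B bins the held-out library kept the sign of its line. It was lowest at Ccdc172 (chr19:58500001-58600000), at -0.0161 against -0.00523 in Setdb1 WT and positive scores up to 0.0134 in the Suv39h libraries. At Supt3, a gene for a subunit of the SAGA complex (chr17:45000001-45100000), it was -0.0110 against -0.0168 in Setdb1 WT. In a bin 244 kb from Fam19a5 (chr15:87200001-87300000) it was -0.00990 against -0.0197. At Supt3 and near Fam19a5 it lay above all 3 other Setdb1 libraries while below zero.

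The other Setdb1-A run of 4 bins, at chr9:7100001-7500000, held Dync2h1, the ciliary dynein heavy chain gene, Dcun1d5 and the matrix metalloproteinase genes Mmp13, Mmp12 and Mmp1b. The run averaged 0.00444 in Setdb1 WT and 0.0105 in Setdb1 KO, with 0.0157 in Setdb1 KO + UNC, against -0.0120 to -0.0103 in the Suv39h libraries. Setdb1 WT + UNC averaged -0.0146, below all 7 other libraries, and was negative in 4 of 4 bins.

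At chr15:4700001-5000000, 3 bins held C6 and C7, encoding terminal complement components, and Mroh2b. They averaged 0.00468 in Setdb1 WT, -0.00793 in Setdb1 WT + UNC and -0.00800 in Suv39h WT. At chr12:19600001-19900000, 3 bins 54.5 kb from Gm21863 averaged 0.00458, -0.00944 and -0.0155 in the same libraries. At chr18:3100001-3300000, 2 bins near the start of the scored part of the chromosome held Vmn1r238 and part of Crem, a transcription factor gene of cAMP signalling, and averaged 0.0153, -0.0154 and -0.00975.

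A run of 3 bins at chr1:194900001-195200000 differed from these runs. It held Cd34, a cell-surface sialomucin gene, and the complement regulator and receptor genes Cd46, Cr1l and Cr2. Setdb1 WT + UNC averaged 0.00307 there, within the 0.00212 to 0.00377 of the other Setdb1 libraries, and was negative in 0 of 3 bins. The Suv39h libraries averaged -0.00717 to -0.00236.

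The widest Setdb1-A difference, -0.0456, lay in the run beside Zfp808. Outside the 6 named runs the widest lay at Stfa1, Gm5416 and 2010005H15Rik, where Stfa1 encodes the cysteine protease inhibitor stefin A (-0.0421, chr16:36200001-36300000), in a bin 38.1 kb from Gdi2 (-0.0373, chr13:3400001-3500000) and at 2410141K09Rik (-0.0343, chr13:66400001-66500000). At the stefin bin Setdb1 WT + UNC was 0.00405, positive but below the 0.0216 of Setdb1 WT. At the other pair it was -0.00514 and -0.0110.

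Setdb1 WT + UNC was lowest in 3 bins of proximal chromosome 9. It was -0.0250 and -0.0229 in adjacent bins at chr9:4800001-5000000 near Gria4, a glutamate receptor subunit gene, and -0.0245 at chr9:5600001-5700000. Setdb1 WT was 0.00297, 0.00243 and 0.00790 in these bins. At the other end, Setdb1 WT + UNC stayed positive at Gbp2b and Gbp2, interferon-inducible GTPase genes (0.0108, chr3:142600001-142700000), in a bin of the run beside Zfp808 (0.00640, chr13:61800001-61900000), and at Cpeb4 and 4930524B15Rik (0.00637, chr11:31900001-32000000).

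The classes differed in sequence, which the rule did not use. Setdb1-B bins had a median GC content of 43.8% (quartiles 42.2 and 45.1), above the 41.4% of all bins, and 23.7% of their bases were repeat-masked, below the 31.6% of all bins. Setdb1-A bins had a median GC content of 40.7% and 42.1% repeat-masked bases. The repeat share of the Setdb1-B bins was below that of all bins on 19 of 19 autosomes, and that of the Setdb1-A bins above it on 18 of 19. Some autosomes held few bins of a class, such as 2 Setdb1-B bins on chromosome 3 and 2 Setdb1-A bins on chromosome 17. Under the rule as used, the median repeat shares of both classes lay outside those of the bins that were A in all 8 libraries (27.4%) and B in all 8 (37.4%).

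GATC sites were more frequent in Setdb1-A bins, at 2.67 per kb, than in Setdb1-B bins, at 2.45 per kb, or in all bins, at 2.47 per kb. Their density in Setdb1-A bins was above that of all bins on 17 of 19 autosomes, some of which held few Setdb1-A bins. The part of cutting frequency and of reads that map to repeats in the scores was not tested. Where Setdb1 WT + UNC was also required to have the sign of its line, the repeat share was 27.1% in the 50 Setdb1-B bins and 37.4% in the 35 Setdb1-A bins left. Those shares lie close to the 27.4% of bins always A and the 37.4% of bins always B.

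**Figure D4:**
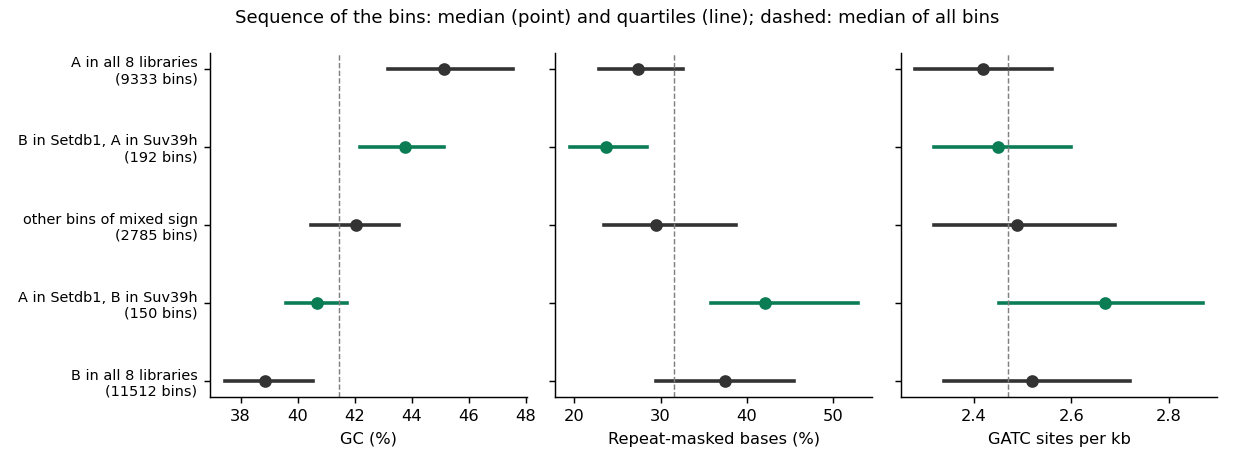
GC content (%), repeat-masked bases (%) and GATC sites per kb of bins that were A in all 8 libraries, B in all 8, of mixed sign, or switching (green). Points are medians, lines span the quartiles and dashed lines mark the median of all bins. Repeat-masked bases are at 23.7% in bins B in the Setdb1 line and at 42.1% in bins A in it.

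Gene content was read as the share of bins in which no protein-coding gene started. In 152 of 192 Setdb1-B bins (79.2%) no protein-coding gene started, and the class held 53 gene starts. In 59 of 150 Setdb1-A bins (39.3%) none started, and the class held 159. The order of the classes was not stable. With a minimum score of 0.005 the shares were 50% of the 8 Setdb1-B and 61.1% of the 18 Setdb1-A bins left, and the Setdb1-A share was 20% where Setdb1 WT + UNC was required to have the sign of its line. The share over all bins was 58.1%, with 30.7% in bins always A and 79.0% in bins always B. The Setdb1-B bins, whose GC content was nearer to that of bins always A (45.1%) than to that of bins always B (38.8%), lacked a gene start about as often as bins always B under the rule as used. The Setdb1-A bins had a low GC content and 1.06 gene starts a bin, beside 0.864 over all bins.

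Position set the classes apart too. In the first 10 Mb of the autosomes lay 34 of the 150 Setdb1-A bins (22.7%) and 7 of the 192 Setdb1-B bins (3.65%), beside 5.49% of all bins and 11.9% of the other bins of mixed sign. Of the 34, 10 lay on chromosome 9, 6 on chromosome 18, and 5 each on chromosomes 13 and 15. Setdb1 WT + UNC was on the Suv39h side in 34 of 34. Without the first 10 Mb it was so in 81 of 116 Setdb1-A bins (69.8%), a choice of bins made after the values were seen.

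Chromosome 13 held the most switching bins, 48 or 4.09% of its bins, with 27 Setdb1-B and 21 Setdb1-A. Chromosome 9 followed with 35 (2.88%). The smallest share was on chromosome 3, with 10 bins (0.637%). Setdb1 WT + UNC was on the Suv39h side in a share from 37.5% of 8 bins on chromosome 17 to 93.8% of 16 bins on chromosome 10, and above 50% on the other 17 autosomes.

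**Figure D5:**
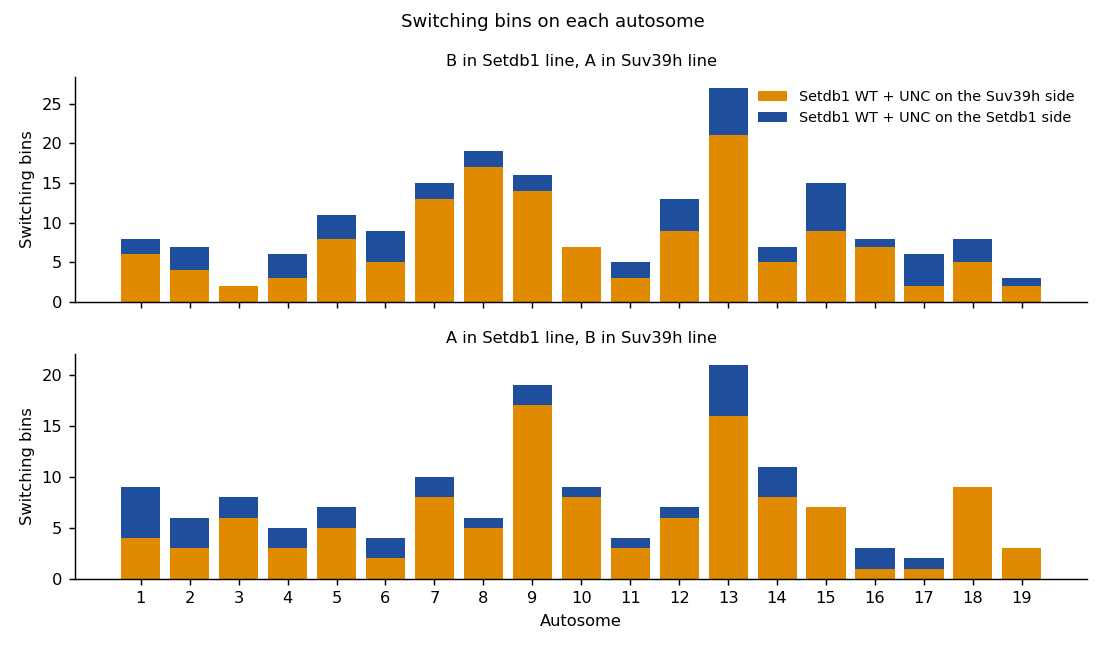
Number of switching bins (vertical axis) on each autosome (horizontal axis), for bins B in the Setdb1 line (top) and A in it (bottom), split by the side of zero that Setdb1 WT + UNC took. Chromosome 13 has the most in both panels, with 27 and 21 bins.

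Of 20713 protein-coding genes in scored bins, 212 (1.02%) started in switching bins. The lists used to read them were chosen with earlier results of these data known. Vomeronasal type 1 receptor genes, which encode pheromone receptors of the nose, made up 19 of them, 9.60% of the 198 in scored bins. All 19 were in Setdb1-A bins, in 8 bins on 4 autosomes, and 137 of the 198 were in bins always B. Examples are Vmn1r42, Vmn1r43 and Vmn1r44, which share 1 bin on chromosome 6. In 7 of the 8 bins Setdb1 WT + UNC was negative.

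In the bin of Vmn1r42, Vmn1r43 and Vmn1r44 Setdb1 WT scored 0.00150 and Setdb1 KO 0.0149, with 0.00951 in Setdb1 KO + UNC. The Suv39h line stood at -0.0124 (WT), -0.00634 (WT + UNC), -0.0118 (DKO) and -0.00504 (DKO + UNC). Setdb1 WT + UNC, at -0.0114, lay within the Suv39h range. Vmn1r216 is annotated under a pair of gene identifiers and was counted under each.

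Olfactory receptor genes, of similar sensory use, were 10 of 1087 (0.920%), close to the share of all genes, all in Setdb1-A bins such as those of Olfr835, Olfr820 and Olfr821. Type 2 vomeronasal receptors were 2 of 117, Vmn2r62 and Vmn2r63. A group of 6 clustered protocadherin genes, Pcdhb3 and its neighbours, shared 1 Setdb1-A bin on chromosome 18, with a score of 0.00452 in Setdb1 WT, -0.00757 in Setdb1 WT + UNC and -0.000790 in Suv39h WT. Protocadherins give neurons a surface identity, and 44 of 57 lay in bins always A, beside 14680 of all 20713 genes.

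Zinc finger (Zfp) genes, many of which encode repressors of retroviral repeats and are targets of SETDB1, were 7 of 378 (1.85%). Zfp648 lay in a Setdb1-B bin, and the other 6, among them Zfp980 and Zfp991 on chromosome 4, lay in 5 Setdb1-A bins. Setdb1 WT + UNC was negative in 3 of these 5, with scores from -0.0150 to 0.000702, and was -0.00479 in the bin of Zfp980 and -0.00435 in that of Zfp991. The cytochrome P450 genes Cyp2g1, Cyp2a5 and Cyp2a22 lay in a pair of Setdb1-A bins on chromosome 7.

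A group of 5 keratin genes, among them Krt36, Krt13 and Krt15, shared 1 Setdb1-B bin on chromosome 11, in which Setdb1 WT was at -0.000296, Setdb1 WT + UNC at 0.000122 and Suv39h WT at 0.000859. The long gene Cdh13 started in a Setdb1-B bin and Fhit, another, in a Setdb1-A bin. Tdpoz4, of a family active at the early cleavage stage, lay in a Setdb1-A bin with 0.00540 in Setdb1 WT, -0.0142 in Setdb1 WT + UNC and -0.00758 in Suv39h WT. Single genes of other lists were Slc6a2 and Adamts20 in Setdb1-B bins and Slc22a8, Clec2g and Il3ra in Setdb1-A bins. The remaining lists held 26 to 93 genes each in scored bins and had 0 in switching bins, beside 1.02% of all genes, a share under 1 gene for lists of these sizes. They were pluripotency, lineage regulator, germline, imprinted, housekeeping, H3K9 methylation machinery, Hox, histone cluster, taste receptor, defensin, serpin, potassium channel, glutamate and GABA receptor, ribosomal protein, kallikrein and collagen genes, semaphorins and ephrins with their receptors, and Wnt, Fgf and Bmp ligands.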

How the data were processed

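Hi-C was done in repeats on 8 groups of mouse embryonic stem cells, and 1 score file a group was used, called a library here. The authors cut chromatin with DpnII, aligned reads to mm10, built contact maps with Juicer, and derived the leading eigenvector per autosome at 100 kb. The deposited values are this compartment score, which has no unit, with A positive. Samples were grouped by the labels. The bins and gene lists were chosen with earlier results of these data known.

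Of 24005 bins, the 23972 scored in all 8 libraries were used, and 33 were left out. Scores were used as deposited. On each autosome they average zero, and the mean implied by an eigenvector of unit length was 0.00165 to 0.0112, larger than many switching scores, so the zero that defines the sign is not fixed by the files. The subtraction of that mean is inferred from the values.

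Shares have 95% Wilson intervals, from scipy. Per-bin contrasts used limma 3.58.1 in R 4.3.3 on all 8 libraries, with background as a block for UNC0642, 3 residual degrees of freedom and Benjamini-Hochberg adjustment, tested on simulated scores. Sequence was taken from GRCm38.p6, which has the coordinates of mm10, genes from GENCODE vM21, and promoters from RefSeq. A gene was assigned to the bin of its start. Named regions were, in each class, the 6 longest runs, the 3 other bins with the widest line difference, and the 3 bins with the held-out score farthest on each side. Up to 5 genes a region were named, or the nearest where none overlapped, and every listed gene in a switching bin, with up to 3 examples for numbered families. Alternatives moved the zero, set a minimum score, used quantile normalization, 500-kb means or a change of 0.02, dropped the block, or left out a library. Leaving out the first 10 Mb, requiring the sign of the line in Setdb1 WT + UNC, placing a library in the same bins as Setdb1 WT + UNC, and leaving that library out of the fit were chosen after seeing the data. No p-value was computed across bins. The depth behind each score is not given here, since read numbers listed per repeat could not be matched to the score files.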

Additional observations from a re-analysis of the deposited data

Results flagged for a closer look

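Among the 4 Setdb1 libraries, each placed in Setdb1-B bins it did not help to choose, Setdb1 WT + UNC stood far from the others, with 74.0% of bins on the Suv39h side and a median position of 0.714 between the lines. The gap to the nearest library was 0.906 and 0.910 of the whole range, above Dixon's critical value for 4 samples. In Setdb1-A bins the corresponding gaps were below that value. So are the gaps in Setdb1-B bins when the other libraries are placed without Setdb1 WT + UNC in the choice, where Setdb1 WT crossed in 26.2% of bins and each of the KO libraries in 13.9%. Dixon's critical value assumes independent draws, whereas the flagged bin sets overlap and Setdb1 WT + UNC helped choose those of the other libraries. No rate of chance flags can therefore be given. The share and the position also come from the same scores.

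The median change with UNC0642 differed in sign between backgrounds. In Setdb1-B bins it was 0.00699 between Setdb1 WT and the library labelled Setdb1 WT + UNC and -0.00044 between Setdb1 KO and Setdb1 KO + UNC, a difference of 0.00743. It was 0.000361 in Suv39h WT and 0.000459 in Suv39h DKO cells. In Setdb1-A bins it was -0.0118 and 0.000722, a difference of -0.0125. In the Suv39h line the median changes in Setdb1-A bins were -5.35e-05 in Suv39h WT and 0.000177 in Suv39h DKO, a difference of -0.00023. The rule held Setdb1 KO and Setdb1 KO + UNC on one side of zero and left Setdb1 WT + UNC free, so the contrast draws on values that chose the bins. The medians other than those of Setdb1 WT were near zero, the first pair of differences rests on the library that stood apart from its labelled line, and none was tested.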

How the results depend on the processing

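The rule depends on the zero of the score and on signs near it, and the depth behind each score is not given here. With the implied mean added, the share of Setdb1-B bins with Setdb1 WT + UNC on the Suv39h side was 62.7%, its median position 0.608, their GC content 42.4% and repeat-masked bases 25.6%, and in Setdb1-A bins the GC content was 40.2% and 52.5% lacked a gene start. With it subtracted, the Setdb1-B share was 64.2%, GC content 44.2% and bins without a gene start 68.2%, and in Setdb1-A bins the GC content was 41.1% and repeat-masked bases 39.5%. With autosomes centred on the median, the GC content of Setdb1-B bins was 43.1% and 47.5% of Setdb1-A bins lacked a gene start.

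Requiring a score of at least 0.005 left 8 Setdb1-B bins (held-out share 100%, position 0.815, GC content 44.2%, 50% without a gene start) and 18 Setdb1-A bins (share 83.3%, 61.1% without a gene start). In means of 500 kb, 62 and 41 windows switched, and in the 41 the share was 90.2% and the position 0.966. Without the first 10 Mb, the position in Setdb1-A bins was 0.743. With Setdb1 WT + UNC required to have the sign of its line, 50 Setdb1-B bins (GC content 42.2%, repeat-masked bases 27.1%) and 35 Setdb1-A bins (37.4%, with 20% lacking a gene start) were left. At a change of 0.02 the counts for Setdb1 WT + UNC against Setdb1 WT were 3 and 22 (0.125% and 0.446% of all bins), and 0 in each class for both Suv39h contrasts (0.0417% to 0.184% of all bins). The causes of these shifts were not tested.

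With 1 library left out of the choice, 221 to 288 Setdb1-B and 167 to 247 Setdb1-A bins were chosen. Over all settings that left out a library, including those that placed another library instead of Setdb1 WT + UNC, the share ran from 10.7% to 77.3% and the position from -0.0402 to 0.731 in Setdb1-B bins, and from 0% to 83.4% and -0.296 to 0.938 in Setdb1-A bins. The low ends belong to the other libraries. Of all values recomputed, 189 stayed within the spread allowed, 76 moved and 7 changed sign, all 7 being positions of Setdb1 KO or Setdb1 KO + UNC placed in that way. The limma fits gave 0 adjusted calls under each alternative run.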

Other observations

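Several switching bins held genes outside the lists, and those below were chosen after their values were seen. The Setdb1-A bin chr4:88700001-88800000, with Klhl9 and the interferon gene Ifnz, scored 0.000805 in Setdb1 WT, 0.00944 after SETDB1 loss (Setdb1 KO) and 0.00516 in Setdb1 KO + UNC, against -0.0139 to -0.00970 in the Suv39h libraries and -0.0114 in Setdb1 WT + UNC. The Setdb1-A bin of the interferon-inducible GTPase genes Gbp8, Gbp9 and Gbp4 scored 0.00153 in Setdb1 WT, -0.0101 in Setdb1 WT + UNC and -0.00628 in Suv39h WT.

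The aldo-keto reductase genes Akr1c18 and Akr1c13 started in 1 Setdb1-A bin with 0.00679 in Setdb1 WT, -0.00703 in Setdb1 WT + UNC and -0.00259 in Suv39h WT. In Setdb1-B bins on chromosome 13, Edn1, encoding the vasoconstrictor endothelin, had -0.00534 in Setdb1 WT, 0.00456 in Setdb1 WT + UNC and 0.00586 in Suv39h WT. Irx1, a homeobox gene, had -0.00324, 0.0101 and 0.00244 in the same libraries.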
